A study of Mus musculus with 18 samples.

Results

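The testis of mice under chronic restraint stress was compared with the testis of control mice by RNA sequencing. The comparison covered 19915 genes that passed a filter on low counts, of 34932 genes measured, in 6 of the 18 libraries of a study that also sampled liver and brain. The stress group held 3 testis libraries from mice subjected to chronic restraint stress, a procedure in which animals are repeatedly held confined. The control group held 3 testis libraries from mice given no such treatment in the labels. The labels call the replicates biological and give no strain, age or genotype, no length of restraint and no interval between the last restraint and sampling. Liver and brain libraries of stressed and control mice, 3 a group, are set beside testis where stated, and for the libraries labelled brain the RNA extraction protocol names the hippocampus. Sample codes recur across tissues, so the 3 tissues may come from the same animals. The labels conflict for replicate 3 of stress brain. Its title and the heading of its values mark it as stress, but its label text has a prefix used for controls. It was treated as stress throughout, so the brain comparisons depend on that choice.

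The testis makes sperm and androgens. Germ cells pass through mitotic, meiotic and post-meiotic stages inside seminiferous tubules, where Sertoli cells support them and peritubular myoid cells surround them. Leydig cells between the tubules make testosterone under the control of luteinizing hormone, and macrophages lie beside them. Stress raises circulating glucocorticoids, which act through the glucocorticoid receptor Nr3c1 and are known to reduce steroid synthesis in Leydig cells of rodents.

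The libraries held 30123444, 28507662 and 33484571 counts in stress testis and 29064959, 27845840 and 31375726 counts in control testis. The tissue label fitted the marker genes, since 114 germ cell markers summed to between 49580 and 53270 CPM (counts scaled to the library size) in the testis libraries, against 176 to 297.5 CPM in liver and 1602 to 1860 CPM in brain. Stress replicate 2 stood apart from the other 5 testis libraries. It lay at 68.8 on the first principal component, which held 44.1% of the variance, while the others lay between -29.8 and -1.7. Mitochondrial mRNAs made up 0.595% of its counts, against 1.02% to 1.44% in the others, and the RNA gene Gm23935 took 16.7% of its TPM, against 2.73% to 11.4%. List medians are given with and without it, as are log2 fold changes of list members that it moved by over 1.5 times.

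Few genes passed the test of stress against control testis, and with 3 libraries a group the others are not shown to be unchanged. In the quasi-likelihood test of edgeR, with p-values adjusted by the Benjamini-Hochberg method across the tested genes, 1 gene rose and 3 fell at an adjusted p under 0.05. That is 0.00502% and 0.0151% of the genes tested, and 0.0201% in both directions. The genes that fell were Fras1, Afm and the long non-coding RNA 1700084F23Rik, and the gene that rose was the processed pseudogene Gm6969. At an unadjusted p under 0.05, 1281 genes (6.43%) were on the higher side and 1056 (5.3%) on the lower side. The split between directions depended on the method, with 1114 and 1177 genes by limma-voom on the counts and 555 and 1318 by limma on log2(TPM + 1). The 2 groups did not overlap for 2048 genes on the higher side (10.3%) and 2122 on the lower side (10.7%).

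**Figure D1:**
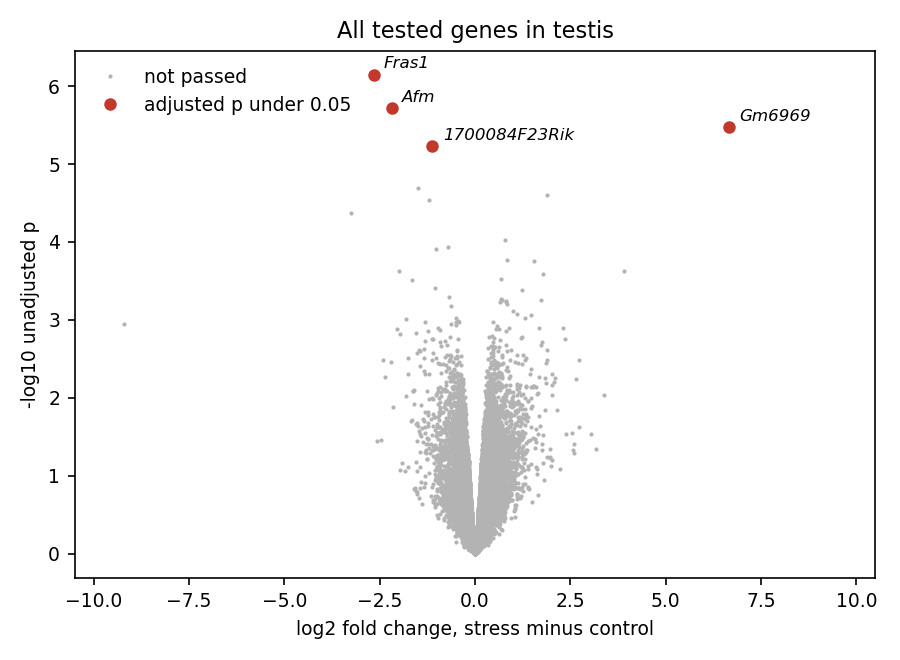
Log2 fold change of stress minus control testis (x axis) against -log10 of the unadjusted p from edgeR (y axis) for the 19915 tested genes, each a point. The 4 genes with an adjusted p under 0.05 are drawn large and named, with Gm6969 at 6.65 on the right and Fras1, Afm and 1700084F23Rik between -2.66 and -1.12 on the left.

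Fras1 encodes an extracellular matrix protein of basement membranes that is needed for the adhesion of epithelia in the embryo. Its levels were 1.04, 1.05 and 0.955 CPM in stress testis, against 4.95, 7.41 and 6.91 CPM in control testis. The stress libraries lay close together and all below the lowest control library. These levels rest on 31, 32 and 32 counts in stress testis and on 137, 205 and 216 counts in control testis. The log2 fold change was -2.66 ± 0.23 (SE, 3 libraries a group, edgeR adjusted p = 0.01424). Fras1 passed in 4 of the 6 fits that each left out 1 library, with adjusted p-values up to 0.1217 and log2 fold changes between -2.81 and -2.54.

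Afm encodes afamin, a secreted glycoprotein of the albumin family that binds vitamin E and is made mainly in the liver. Stress testis had 3.03, 3.03 and 3.88 CPM, against 14.6, 11.6 and 18.8 CPM in control testis. Each control library was above every stress library. The log2 fold change was -2.18 ± 0.21 (SE, edgeR adjusted p = 0.01932), and with 1 library left out it ranged from -2.33 to -1.98 and passed in 3 of 6 fits. In liver, where Afm is abundant, stress libraries had 252.4, 244.6 and 188.8 CPM and control libraries 253.9, 224.7 and 287.8 CPM, a log2 fold change of -0.16. Fras1 and Afm lie on chromosome 5 in the GRCm38 annotation.

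The long non-coding RNA 1700084F23Rik, on chromosome 13 in the same annotation, was named after its values were seen. Its levels were 15.5, 14.6 and 12.4 CPM in stress testis, against 33.1, 29.3 and 29.8 CPM in control testis, with no overlap. The log2 fold change was -1.12 ± 0.12 (SE, edgeR adjusted p = 0.02921). With 1 library left out it passed in 1 of 6 fits, and its log2 fold change lay between -1.19 and -1.03. In liver and brain it had at most 0.0621 CPM in any library.

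Gm6969, a processed pseudogene on chromosome 12, was also named after its values were seen. It had 17.4, 19.02 and 6.68 CPM in stress testis, against 0, 0.361 and 0.0639 CPM in control testis. In counts these were 518, 578 and 224 reads in stress testis and 0, 10 and 2 reads in control testis. The fitted log2 fold change was 6.65 ± 0.68 (SE, edgeR adjusted p = 0.02232), and it passed in 3 of 6 fits with 1 library left out. Reads of a processed pseudogene can come from its parent gene or from other copies, so the locus of origin is uncertain. The same contrast appeared in the other tissues, with 20.3, 15.4 and 7.69 CPM in stress liver against 0.553, 1.01 and 0.559 CPM in control liver, and 26.2, 27.0 and 14.9 CPM in stress brain against 0.953, 0.432 and 0.444 CPM in control brain. The log2 fold changes were 4.34 in liver (edgeR adjusted p = 0.002855) and 5.21 in brain (edgeR adjusted p = 0.02524). In all 3 tissues stress replicate 3 was the lowest stress library. Since sample codes recur between the tissues, these need not be independent animals.

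**Figure D2:**
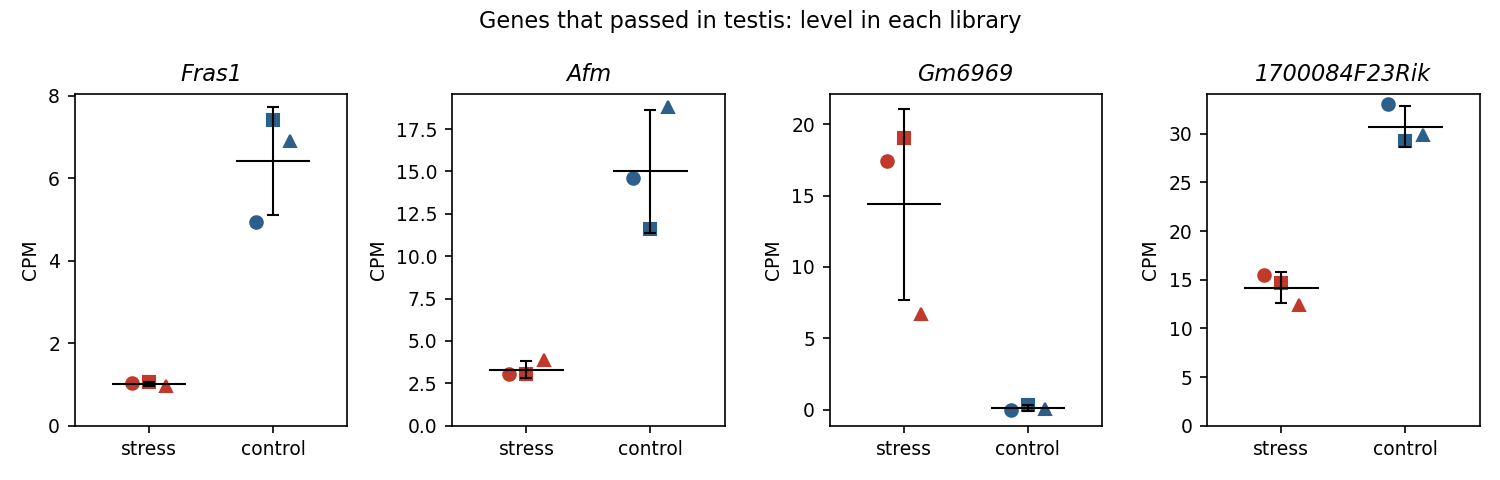
Level in CPM (y axis) of the 4 genes with an adjusted p under 0.05 in each testis library, stress left and control right, with a circle, square and triangle for replicates 1, 2 and 3 and a bar for the mean ± SD (n = 3). Fras1, Afm and 1700084F23Rik lie lower in all 3 stress libraries, and Gm6969 is at most 0.361 CPM in the control libraries.

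Promoters are shown for the 2 of these 4 genes found in RefSeq's table of GRCm38.p6, from 250 bases before to 50 bases after the annotated start. The motifs searched on both strands were TATAAA, the core of a TATA box, and AGAACA, which forms one side of the palindrome bound by the glucocorticoid receptor and no match of one motif overlapped a match of the other. Capitals mark TATAAA in Afm and the reverse complement of AGAACA in 1700084F23Rik.
Afm, chr5:90518699-90518998, plus strand: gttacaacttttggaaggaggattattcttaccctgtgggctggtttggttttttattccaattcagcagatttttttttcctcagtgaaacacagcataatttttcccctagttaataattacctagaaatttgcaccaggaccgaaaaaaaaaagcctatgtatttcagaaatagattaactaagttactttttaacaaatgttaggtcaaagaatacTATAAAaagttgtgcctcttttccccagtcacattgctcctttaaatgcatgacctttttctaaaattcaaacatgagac
1700084F23Rik, chr13:70028299-70028598, minus strand: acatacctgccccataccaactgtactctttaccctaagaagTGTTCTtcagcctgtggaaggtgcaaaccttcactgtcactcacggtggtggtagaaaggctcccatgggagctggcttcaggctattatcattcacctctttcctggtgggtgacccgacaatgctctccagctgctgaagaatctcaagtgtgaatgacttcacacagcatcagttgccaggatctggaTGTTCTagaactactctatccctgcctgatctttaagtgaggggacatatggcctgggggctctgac
The Afm window held TATAAA 30 bases before the start, and the 1700084F23Rik window held AGAACA on its opposite strand 208 and 17 bases before the start. Of 32851 promoters of this length, 13.6% held TATAAA and 18.97% held AGAACA on either strand. A match is a description of the letters and not of a bound site.

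The protein-coding genes next in order of unadjusted p did not pass, with edgeR adjusted p-values between 0.0819 and 0.4224 for 8 genes on the lower side and 0.0819 and 0.4224 for 9 genes described on the higher side. On the lower side, Aldh3a1, an aldehyde dehydrogenase, had 2.15, 2.90 and 2.18 CPM in stress testis, against 6.93, 6.18 and 7.32 CPM in control testis (log2 fold change -1.50 ± 0.19, SE). Zeb1, a transcription factor that represses E-cadherin, had 11.1, 10.3 and 10.7 CPM in stress testis and 18.1, 17.2 and 17.4 CPM in control testis (-0.72 ± 0.11, SE). Neither pair of groups overlapped, as the choice of genes required. The others were Speer1, a member of a multicopy testis family (-1.02), the bicarbonate transporter Slc4a10 (-1.99), the glucuronosyltransferase Ugt1a7c (-1.64), the aminopeptidase Lnpep (-0.69), the zinc finger gene Sall3 (-0.62) and the cohesin regulator Pds5a (-0.50).

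On the higher side, Tmem37, which encodes a calcium channel gamma-like subunit, had 5.95, 7.995 and 4.53 CPM in stress testis, against 1.62, 1.52 and 1.82 CPM in control testis (log2 fold change 1.89 ± 0.25, SE). Hapln1, which links proteoglycans to hyaluronan, had 3.67, 0.921 and 3.94 CPM in stress testis and 0.361, 0.0723 and 0.128 CPM in control testis (3.91 ± 0.68, SE). Stress replicate 2 was the lowest stress library for Hapln1, and its place above every control library was a condition of the choice. Amd2, a copy of the gene for S-adenosylmethionine decarboxylase in polyamine synthesis, had 3.43, 4.28 and 4.39 CPM in stress testis and 0.938, 1.74 and 1.41 CPM in control testis (1.56 ± 0.26, SE). As near-identical copies exist, reads may be split between Amd2 and its relatives. The others were the ribosomal protein gene Rps13 (0.84), the kinase of interleukin receptor signalling Irak4 (0.68), Mpped1 (0.67), Commd9 (0.72), the fractalkine receptor Cx3cr1 (0.81) and Stoml1 (0.80).

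Hapln1 and Amd2 showed the same direction in liver. Hapln1 had 1.73, 0.786 and 2.03 CPM in stress liver, against 0.0582, 0.179 and 0.0621 CPM in control liver (log2 fold change 3.87, edgeR adjusted p = 0.02229). In brain, where Hapln1 is abundant, stress libraries had 22.7, 19.8 and 15.9 CPM and control libraries 22.9, 21.2 and 18.8 CPM (-0.11). Amd2 had 2.82, 3.32 and 4.45 CPM in stress liver and 0.524, 1.01 and 1.37 CPM in control liver (1.87, edgeR adjusted p = 0.04759). In brain Amd2 had 9.57, 9.02 and 8.66 CPM under stress and 4.94, 2.28 and 3.33 CPM in controls (1.37, edgeR adjusted p = 0.3874). These liver and brain calls are to be read against 1.63% of 14253 genes called in liver and 0.00566% of 17668 genes called in brain.

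Without stress replicate 2, 21 of 20365 genes passed (0.103%), 8 higher and 13 lower, and all 4 genes of the full comparison were among them. Among them, on the log2 scale, Hapln1 differed by 4.33 (edgeR adjusted p = 0.002209), Tmem37 1.65 (0.01888), Rps13 0.69 (0.0494), Aldh3a1 -1.66 (0.004265) and Ugt1a7c -1.36 (0.04421). The rest of the 21 were chosen after their values were seen. Among them the immediate early transcription factor Egr1 had 6.02 and 4.42 CPM in stress replicates 1 and 3, against 21.6, 32.7 and 55.1 CPM in control testis, and 42.3 CPM in stress replicate 2, which lay within the control range. On the log2 scale Egr1 differed by -2.82 without that library (edgeR adjusted p = 0.01233) and by -1.06 with it (0.5355). Sumo2, which encodes a small ubiquitin-like modifier, had 7.77, 20.7 and 6.03 CPM in the 3 stress libraries in order of replicate, against 20.1, 25.2 and 21.8 CPM in control testis. A530064D06Rik had 0.0673, 5.63 and 0.0597 CPM in stress testis, against 9.02, 7.16 and 17.8 CPM in control testis. Gm3952 had 163.1, 18.2 and 94.9 CPM in stress testis, against 25.2, 21.3 and 19.4 CPM in control testis. For Sumo2, A530064D06Rik and Gm3952, stress replicate 2 lay near or beyond the control libraries and apart from the other stress libraries.

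None of 5 genes of the glucocorticoid pathway passed in testis. The receptor gene Nr3c1 had 10.1, 8.03 and 9.84 CPM in stress testis, against 11.01, 12.8 and 12.3 CPM in control testis, without overlap (log2 fold change -0.37 ± 0.14, SE, edgeR adjusted p = 0.4224). Fkbp5, a chaperone of the receptor and a classical target of it, had 34.9, 52.2 and 36.9 CPM in stress testis and 40.7, 36.4 and 37.3 CPM in control testis (0.12 ± 0.15, SE, 0.7439). The ranges of Fkbp5 overlapped. Tsc22d3, another target, had 11.9, 15.3 and 11.3 CPM in stress testis and 8.30, 11.49 and 11.3 CPM in control testis (0.30 ± 0.18, SE, 0.488). The clock gene and target Per1 had 236.6, 265.1 and 224.9 CPM in stress testis and 188.1, 216.9 and 205.5 CPM in control testis (0.25 ± 0.10, SE, 0.4224), and the kinase gene Sgk1 had 5.08, 8.75 and 4.74 CPM in stress testis and 4.19, 5.31 and 5.82 CPM in control testis (0.28 ± 0.26, SE, 0.6336). Without stress replicate 2 the log2 fold changes were -0.09 for Fkbp5, 0.15 for Tsc22d3 and -0.06 for Sgk1. In liver Fkbp5 had 35.0, 59.0 and 43.1 CPM under stress and 13.1, 12.3 and 17.9 CPM in controls (1.67, edgeR adjusted p = 0.01079), and Tsc22d3 had 164.1, 152.7 and 205.3 CPM under stress and 66.4, 38.3 and 50.1 CPM in controls (1.75, 0.007224). The testis effect minus the liver effect was -1.51 ± 0.28 (SE) for Fkbp5 and -1.40 ± 0.29 (SE) for Tsc22d3 on the log2 scale, and these differences did not pass (edgeR adjusted p = 0.05787 and 0.07249).

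Of 27 tested glucocorticoid response genes, none passed, 5 were on the higher side (18.5%, beside 6.43% of all genes) and none on the lower side at an unadjusted p under 0.05, and the median log2 fold change was 0.25, beside 0.01 over all tested genes. When stress replicate 2 was left out, the median was -0.02. In that fit 3 were on the higher side and 1 on the lower side, beside 4.23% and 5.43% of all genes. Lcn2, a target that encodes the iron-binding protein lipocalin 2, had 97.9, 393.8 and 99.0 CPM in stress testis, against 90.2, 78.0 and 81.7 CPM in control testis, so 1 library set its mean. The log2 fold change of Lcn2 was 1.24 with that library and 0.24 without it. Of 13 receptor and steroid enzyme genes, 4 were on the lower side at an unadjusted p under 0.05 (30.8%, beside 5.3% of all genes), with a median of -0.12, or -0.15 without stress replicate 2. Beside Nr3c1 these were the corepressor gene Ncor1 (log2 fold change -0.37), the coactivator gene Ncoa1 (-0.34) and the receptor chaperone gene Hsp90aa1 (-0.37, or -0.20 without that library), and none passed.

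Leydig cell genes did not move as 1 group. Of 26 tested, none passed, 3 were on the higher side and 6 on the lower side at an unadjusted p under 0.05 (11.5% and 23.1%, beside 6.43% and 5.3% of all genes), and the median was -0.05. Leaving out stress replicate 2 gave a median of -0.13. In that fit 2 genes were on the higher side and 7 on the lower side, beside 4.23% and 5.43% of all genes. Star, which moves cholesterol into mitochondria for steroid synthesis, had 34.0, 41.0 and 48.6 CPM in stress testis, against 60.7, 65.6 and 106.4 CPM in control testis (log2 fold change -0.91 ± 0.21, SE, edgeR adjusted p = 0.4224). Lhcgr, the receptor for luteinizing hormone, had 1.58, 0.757 and 2.06 CPM in stress testis and 3.75, 3.47 and 3.93 CPM in control testis (-1.34 ± 0.32, SE, 0.4224). Neither gene's groups overlapped. The prolactin receptor gene Prlr had 13.4, 8.32 and 13.3 CPM in stress testis and 17.1, 16.4 and 20.6 CPM in control testis (-0.62 ± 0.19, SE). The steroid dehydrogenase gene Hsd3b6 had 65.1, 43.8 and 61.0 CPM in stress testis and 96.7, 67.3 and 82.5 CPM in control testis (-0.54 ± 0.17, SE). Cyp17a1, the enzyme that leads to androgens, had a log2 fold change of -0.44 and the estrogen sulfotransferase gene Sult1e1 one of -0.75.

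Other Leydig cell genes lay on the opposite side or overlapped. Of the 26, 10 had a log2 fold change above 0 and 16 below 0. Stress libraries all lay above the controls for 4 (15.4%, beside 10.3% of all genes) and all below for 7 (26.9%, beside 10.7%). Not all of these members are described here. The peptide hormone gene Insl3 had 106.2, 271.4 and 86.2 CPM in stress testis, against 79.8, 77.7 and 61.6 CPM in control testis (log2 fold change 1.08 ± 0.37, SE, edgeR adjusted p = 0.4224), with stress replicate 2 far above the other stress libraries. Cyp11a1, which cleaves the side chain of cholesterol, had 46.1, 53.9 and 48.9 CPM in stress testis and 47.9, 62.6 and 59.1 CPM in control testis (-0.19), and Hsd17b3, which makes testosterone, had 11.6, 14.4 and 14.2 CPM in stress testis and 15.6, 10.6 and 10.7 CPM in control testis (0.13). With stress replicate 2 left out, the log2 fold changes were -0.91 for Star, -1.03 for Lhcgr, -0.44 for Prlr, -0.39 for Hsd3b6, -0.23 for Cyp17a1, 0.39 for Insl3 and 0.07 for Hsd17b3, and none of these passed. In bulk tissue, fewer cells of a type and less RNA per cell cannot be told apart.

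**Figure D3:**
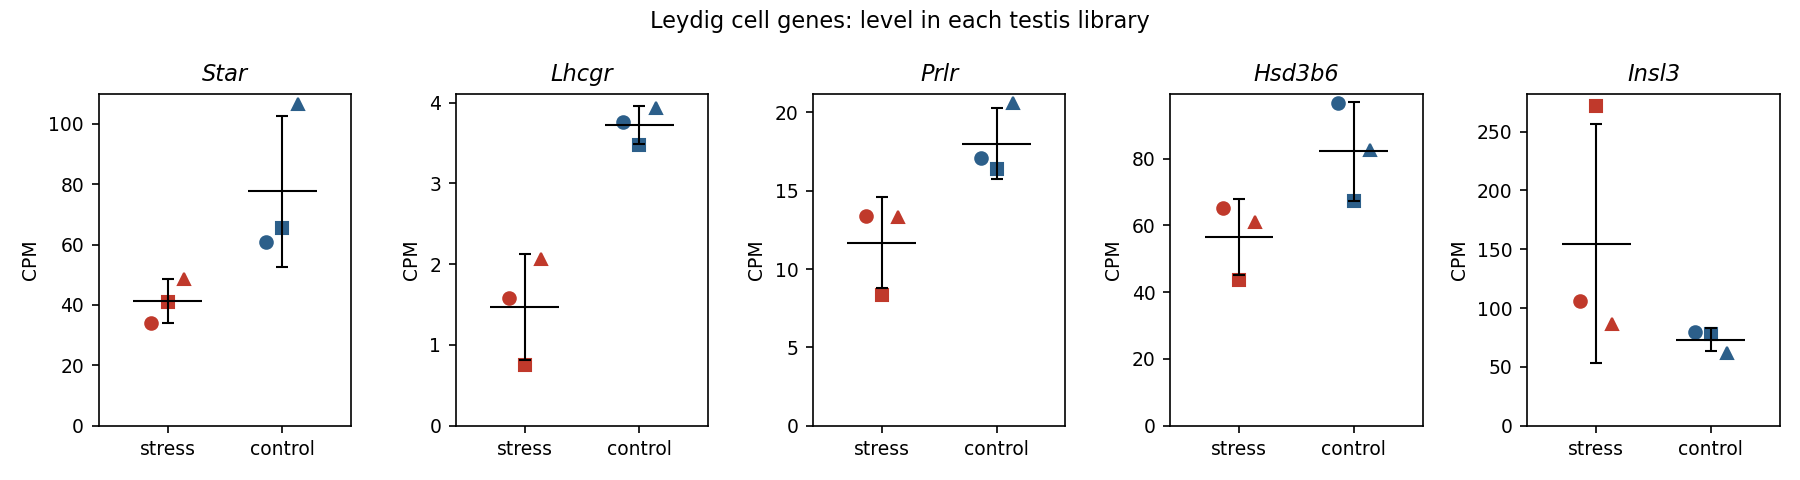
Level in CPM (y axis) of 5 Leydig cell genes in each testis library, stress left and control right, with a circle, square and triangle for replicates 1, 2 and 3 and a bar for the mean ± SD (n = 3). Star, Lhcgr, Prlr and Hsd3b6 lie lower in every stress library than in any control library, Insl3 lies higher, and none passed.

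The germ cell lists had small medians, the largest in size being that of the meiotic prophase genes. The median log2 fold change was -0.02 over 19 tested spermatogonial genes, -0.19 over 30 meiotic prophase genes, 0.01 over 30 round spermatid genes and 0.07 over 29 elongating spermatid genes, and no member of these lists passed. Leaving out stress replicate 2 gave -0.02 (over 20 genes), -0.09, 0.02 and 0.07 in the same order. The medians of spermatogonial, round and elongating spermatid genes changed sign between scales. Of the meiotic genes, 13 of 30 (43.3%, beside 10.7% of all genes) had stress libraries that all lay below the control libraries. At an unadjusted p under 0.05, 5 were on the lower side (16.7%, beside 5.3% of all genes). The meiotic list median was taken relative to the control mean on the log2 scale. Per library it was -0.13, -0.35 and -0.06 in stress testis, against 0.06, -0.01 and -0.03 in control testis. The summed level was 4817, 3772 and 4766 CPM in stress testis, against 5411, 5120 and 5132 CPM in control testis. Tex15, which is needed for meiotic recombination and for silencing of transposons, had 144.4, 76.7 and 141.0 CPM in stress testis and 173.0, 169.1 and 188.9 CPM in control testis (-0.55 ± 0.21, SE, edgeR adjusted p = 0.4224). Rad51ap2 (-0.71), Tex11 (-0.43) and Ythdc2 (-0.64), all with roles in meiosis, showed the same order of groups. With stress replicate 2 left out, 9 meiotic genes were on the lower side, beside 5.43% of all genes. The log2 fold changes were then -0.32 for Tex15, -0.46 for Rad51ap2 and -0.36 for Ythdc2.

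Among 32 flagellum and axoneme genes, 8 were on the lower side at an unadjusted p under 0.05 (25%, beside 5.3%). On the higher side were 2 (6.25%, beside 6.43%), and the median was -0.15. Per library the list median was -0.12, -0.33 and -0.06 in stress testis and 0.02, -0.02 and 0.00 in control testis. Without stress replicate 2 the median was -0.07. In that fit 8 genes were on the lower side and none on the higher side, beside 5.43% and 4.23% of all genes. The axonemal dynein gene Dnah3 had 206.2, 169.7 and 193.0 CPM in stress testis, against 228.4, 244.8 and 260.6 CPM in control testis (-0.37 ± 0.10, SE). The central-pair genes Hydin (-0.39) and Spag17 (-0.49, or -0.30 without stress replicate 2) showed the same order, and none passed. Prm1 and Tnp2, which encode a protamine and a transition protein of sperm chromatin, were among the elongating spermatid genes with the smallest unadjusted p, and neither passed. Prm1 had 2519, 2546 and 2491 CPM in stress testis and 2252, 2135 and 2082 CPM in control testis (0.22 ± 0.08, SE), and Tnp2 had 3761, 4489 and 3579 CPM in stress testis and 3195, 3069 and 3064 CPM in control testis (0.34 ± 0.10, SE). Hydin, Spag17 and Dnah3 encode very long proteins, while Prm1 and Tnp2 are short genes, and gene length is described further on.

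Macrophage markers had the largest median of the cell type lists. Of 20 tested, none passed, and 10 were on the higher side at an unadjusted p under 0.05 (50%, beside 6.43%). On the lower side was 1 (5%, beside 5.3%), and the median was 0.60. Per library the list median was 0.23, 1.18 and 0.25 in stress testis and 0.04, -0.03 and -0.02 in control testis, and the summed level was 470.2, 601.1 and 482.3 CPM in stress testis and 416.6, 402.9 and 401.2 CPM in control testis. Aif1 alone gave 324.3, 334.7 and 316.2 CPM of this sum in stress testis and 276.2, 268.7 and 265.6 CPM in control testis. Without Aif1 the sum was 145.9, 266.4 and 166.0 CPM in stress testis and 140.4, 134.2 and 135.5 CPM in control testis, so stress replicate 1 then lay close to the controls. Leaving out stress replicate 2 gave a median of 0.23 with 6 members on the higher side, beside 4.23% of all genes. Cx3cr1 had 8.58, 7.995 and 7.40 CPM in stress testis, against 5.13, 4.16 and 4.41 CPM in control testis. Cd74, the invariant chain of antigen presentation, had 9.92, 34.6 and 14.7 CPM in stress testis and 7.11, 8.39 and 6.33 CPM in control testis (1.44 ± 0.39, SE). The adaptor gene Tyrobp had 1.28, 2.57 and 1.28 CPM in stress testis and 0.505, 0.687 and 0.991 CPM in control testis (1.22 ± 0.39, SE). Leaving out stress replicate 2 gave 0.76 for Cd74 and 0.80 for Tyrobp.

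Sertoli cell genes had a median of 0.23 over 30 genes and peritubular myoid cell genes one of 0.21 over 20 genes, and both rested on stress replicate 2, whose list medians were 0.60 and 0.44. Without it the medians were 0.01 and -0.01. For 10 Sertoli cell genes the stress libraries all lay above the controls (33.3%, beside 10.3% of all genes). For 4 they all lay below (13.3%, beside 10.7%). Interferon-stimulated genes had a median of 0.45 over 21 genes with stress replicate 2 and 0.21 without it. With all libraries, 2 members were on the higher side at an unadjusted p under 0.05 (9.52%, beside 6.43% of all genes). Endothelial genes had a median of 0.11 over 17 genes and -0.16 without that library. Red blood cell genes, a sign of retained blood, had a median of -0.07 over 6 genes, and genes of the epididymis and fat pad, which can be carried along at dissection, one of 0.13 over 5 tested of 18 listed, or -0.02 and 0.10 without that library. No member of these lists passed, and their part in the other results was not tested.

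**Figure D4:**
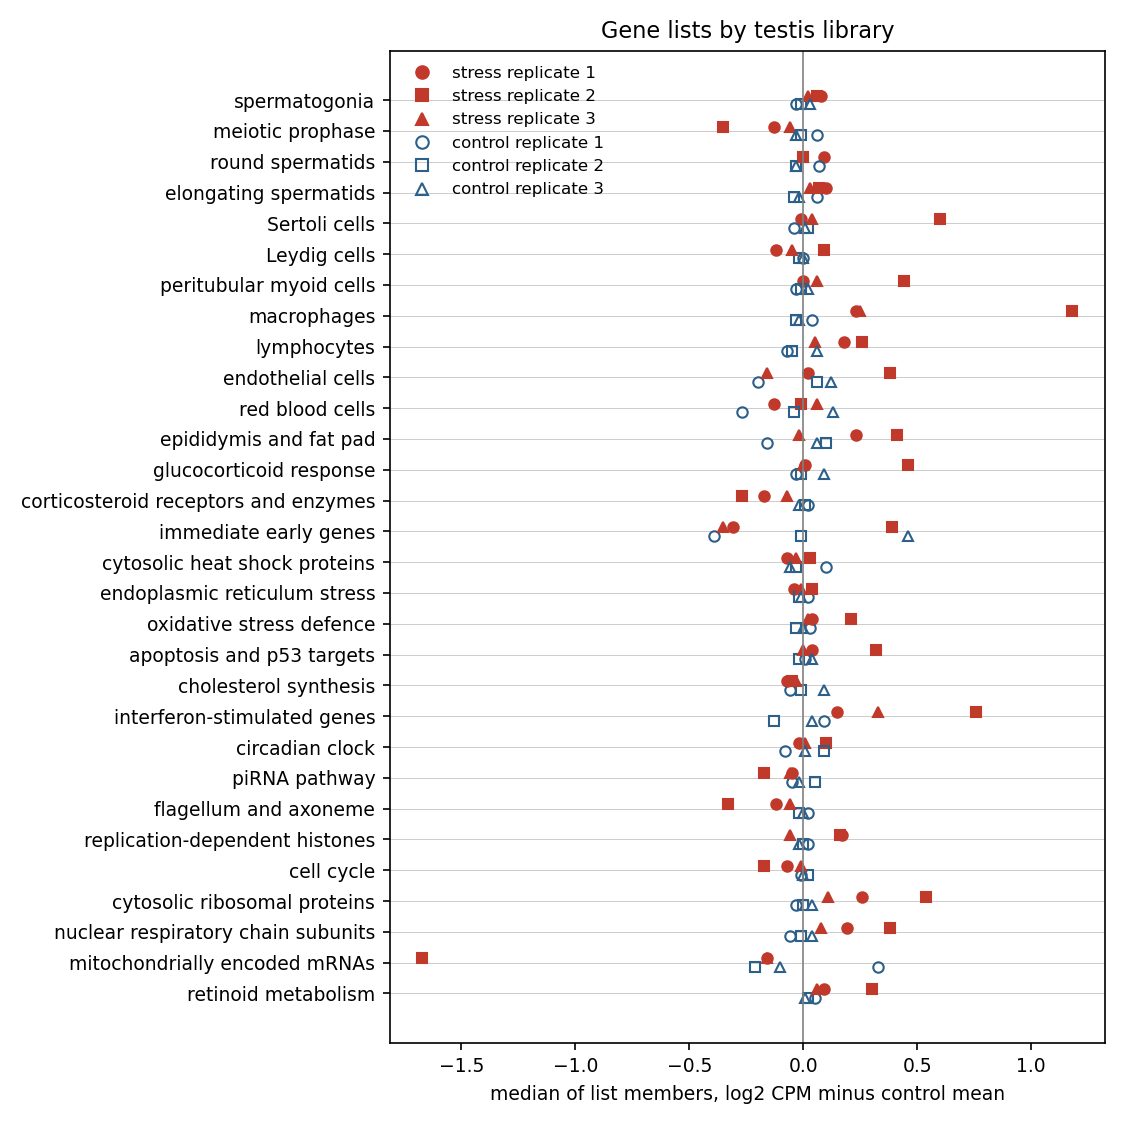
Median over the tested members of each of 30 gene lists in each testis library (x axis, log2 CPM minus the mean of the control libraries), with filled red symbols for stress and open blue symbols for control libraries and circle, square and triangle for replicates 1, 2 and 3. Stress replicate 2 lies apart for macrophages (1.18) and mitochondrially encoded mRNAs (-1.67), while ribosomal protein genes lie above the controls in all 3 stress libraries (0.26, 0.54 and 0.11).

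Genes for cytosolic ribosomal proteins had higher values across the list. Of 57 tested, 56 had a log2 fold change above 0, 33 were on the higher side at an unadjusted p under 0.05 (57.9%, beside 6.43%), 24 had stress libraries all above the control libraries (42.1%, beside 10.3%), and none passed. The median was 0.34 with all libraries and 0.17 without stress replicate 2, when 14 were on the higher side, beside 4.23% of all genes, and Rps13 passed. Rps13 had 70.1, 91.0 and 69.5 CPM in stress testis, against 45.4, 47.0 and 36.7 CPM in control testis. Rpl12 had 83.3, 100.1 and 75.7 CPM in stress testis and 63.5, 65.1 and 66.3 CPM in control testis (0.41 ± 0.11, SE). Many processed copies of ribosomal protein genes exist, and how reads shared by copies were counted is not given in the sources used here.

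Nuclear genes for respiratory chain subunits showed the same direction, with 17 of 42 on the higher side at an unadjusted p under 0.05 (40.5%, beside 6.43% of all genes) and a median of 0.25. Leaving out stress replicate 2 gave 8 genes on the higher side, beside 4.23% of all genes, and a median of 0.15. Uqcrq, a subunit of complex III, had 119.8, 142.2 and 107.6 CPM in stress testis, against 87.0, 98.2 and 91.4 CPM in control testis (0.42 ± 0.11, SE). The 13 mRNAs encoded by mitochondrial DNA lay on the opposite side with a median of -0.47, but their list median was -0.16, -1.67 and -0.16 in stress testis and 0.33, -0.21 and -0.10 in control testis. The stress and control ranges overlapped, and without stress replicate 2 the median was -0.19. No gene of either list passed.

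Immediate early genes, which respond within minutes to stimuli and to handling of tissue, varied within both groups. Their list median was -0.31, 0.39 and -0.35 in stress testis and -0.39, -0.01 and 0.46 in control testis. Fos had 0.538, 10.99 and 0.716 CPM in stress testis, against 3.79, 7.30 and 24.5 CPM in control testis, and Btg2 had 3.70, 13.8 and 3.61 CPM in stress testis and 8.52, 12.9 and 29.4 CPM in control testis. For both, stress replicates 1 and 3 lay below every control library and stress replicate 2 lay within the control range. The log2 fold changes were -1.55 for Fos and -1.28 for Btg2, or -4.24 and -2.22 without that library, and none of these passed. Over 25 tested genes the median was -0.05. At an unadjusted p under 0.05, 1 gene was on the higher side (4%, beside 6.43% of all genes) and none on the lower side. When stress replicate 2 was left out, the median was -0.34, 9 genes were on the lower side, beside 5.43% of all genes, and Egr1 passed.

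The remaining lists showed medians between -0.09 and 0.24. Heat shock protein genes (-0.02 over 28), endoplasmic reticulum stress genes (-0.05 over 25), oxidative stress defence genes (0.08 over 27) and apoptosis and p53 target genes (0.15 over 24) held 2, 0, 4 and 4 members on the higher side and 2, 3, 1 and 1 on the lower side at an unadjusted p under 0.05. As shares these were 7.14%, 0%, 14.8% and 16.7% on the higher side, beside 6.43% of all genes, and 7.14%, 12%, 3.7% and 4.17% on the lower side, beside 5.3%. When stress replicate 2 was left out, these 4 medians were -0.07, -0.07, 0.04 and 0.01. Cholesterol synthesis genes had a median of -0.01 over 25, clock genes 0.05 over 21, piRNA pathway genes -0.09 over 21, cell cycle genes -0.06 over 28, replication-dependent histone genes 0.01 over 9, lymphocyte genes 0.09 over 8 and retinoid metabolism genes 0.24 over 20. In the same order these were -0.05, 0.00, -0.07, -0.05, -0.01, 0.14 and 0.06 when stress replicate 2 was left out. None of these members passed, and the medians of the heat shock, endoplasmic reticulum stress, cholesterol, clock and histone lists changed sign between scales. Hspa1l, a member of the Hsp70 family expressed in spermatids, had 117.8, 113.1 and 114.0 CPM in stress testis, against 100.4, 101.6 and 95.4 CPM in control testis (0.21 ± 0.08, SE), a small difference without overlap.

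The direction of the differences varied with gene length. In 10 classes of about equal size by the length behind the authors' FPKM, the median log2 fold change was 0.09 in the shortest class (56 to 829 bases) and -0.12 in the longest (7770 to 116825 bases). At an unadjusted p under 0.05, 205 genes were on the higher side and 46 on the lower side in the shortest class, and 37 and 289 in the longest. All 3 stress libraries showed this order. Their class medians were 0.13, 0.12 and 0.07 in the shortest class and -0.09, -0.20 and -0.07 in the longest. The control libraries had 0.04, -0.01 and 0.00 in the shortest class and -0.04, 0.01 and 0.03 in the longest. Control replicate 1 thus ran in the same order at a smaller size. The control mean was the reference for all libraries, so control values centre on it by construction. Leaving out stress replicate 2 gave medians of 0.07 and -0.09. Of the ribosomal protein genes 24 of 57 fell into the 2 shortest classes, and the part of length in the list values was not tested.

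**Figure D5:**
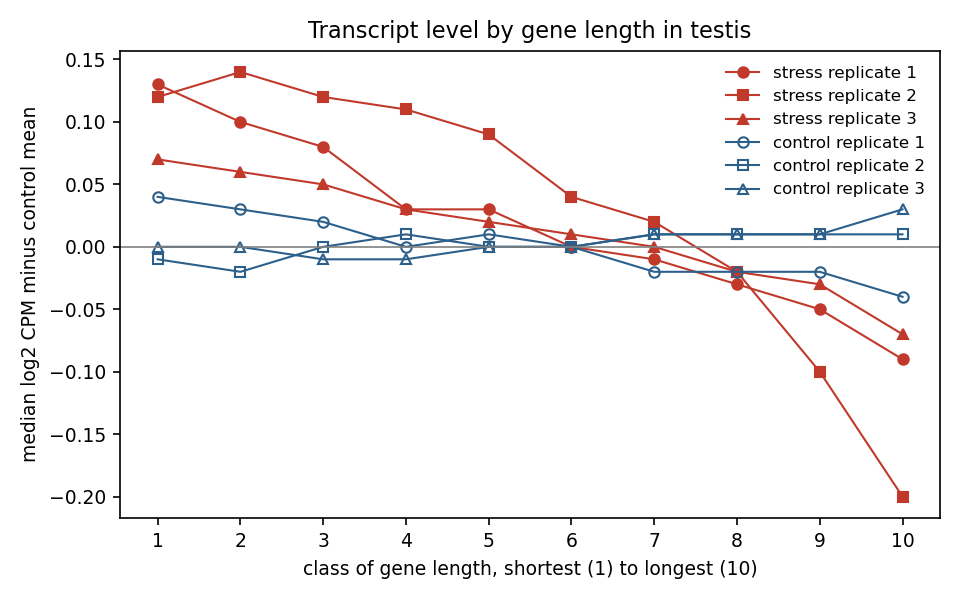
Median log2 CPM minus the mean of the control libraries (y axis) in 10 classes of gene length from shortest to longest (x axis), for each stress (filled red) and control (open blue) testis library. The stress libraries run from between 0.07 and 0.13 in the shortest class to between -0.20 and -0.07 in the longest. The control libraries, whose own mean is the reference, lie between -0.04 and 0.04.

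The stress effect in testis was set against that in liver and in brain by the interaction of tissue and treatment in edgeR. Against liver, 33 of 21392 genes passed (0.154%), 17 with a higher effect in testis and 16 with a lower one. With the animal as a block, taken from the recurring sample codes, 16 genes passed, of which 9 were among the 33. Leaving out control testis replicate 2 left 1 gene and leaving out control testis replicate 3 left 0. For Afm the testis effect minus the liver effect was -1.97 ± 0.27 (SE, edgeR adjusted p = 0.01337) and for Fras1 -1.88 ± 0.28 (SE, 0.0162). With the animal as a block Afm passed (edgeR adjusted p = 0.03251) and Fras1 did not (0.1261). Fras1 had 4.33, 5.11 and 5.14 CPM in stress liver and 7.80, 7.11 and 9.25 CPM in control liver (log2 fold change -0.73, edgeR adjusted p = 0.08213), so its liver value had the same sign and a smaller size. Tmem37 had 84.5, 82.7 and 72.6 CPM in stress liver and 89.1, 71.1 and 73.4 CPM in control liver (0.04), and its difference was 1.90 ± 0.27 (SE, 0.01337). For Afm and Tmem37 the liver groups overlapped.

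The difference of Zbtb16 rested on the liver. Zbtb16, a glucocorticoid target that is also a gene of spermatogonial stem cells, had 2.69, 2.73 and 3.61 CPM in stress testis and 2.85, 2.42 and 2.88 CPM in control testis, and in liver 19.5, 49.7 and 33.1 CPM under stress and 2.13, 3.60 and 3.57 CPM in controls. Its difference was -3.27 ± 0.43 (SE, edgeR adjusted p = 0.01337), with testis groups that overlapped. Against brain, no gene of 22391 passed by edgeR, and 2112 had an unadjusted p under 0.05 (9.43%). The smallest adjusted p there was 0.1682, for Tssk3, A2m, Trim80 and Fras1. For Fras1 the testis effect minus the brain effect was -2.63 ± 0.42 (SE), with 34.2, 53.4 and 57.5 CPM in stress brain and 33.8, 43.3 and 70.6 CPM in control brain.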

How the data were processed

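Per the labels' protocols, total RNA was made into libraries with a stranded kit, and the submitters' processing notes name mouse build mm39. How reads were aligned and counted, with which strand setting and annotation, is not given in the sources used here. Counts, TPM and FPKM were made by the authors. They deposited raw counts per gene without normalization, with TPM and FPKM values for the same genes, and gene lengths were recovered from the deposited counts and FPKM. Symbols and chromosomes came from GENCODE M21 (GRCm38) through the gene IDs, with 34362 matched and 570 unmatched.

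Counts of the 6 testis libraries were tested by the quasi-likelihood method of edgeR 4.0.16 (R 4.3.3), after filterByExpr and TMM scaling. The threshold was a Benjamini-Hochberg adjusted p under 0.05. The fit was also run on counts simulated from its own fitted dispersions, which does not test whether the model holds for these libraries. Alternatives used DESeq2 1.42.0 and limma 3.58.1, other filters and scales, a replicate block and each library left out. CPM are on library sizes scaled by the TMM factors. Replicate pairs differed by more than counting noise, the chi-square over its degrees of freedom being 4.43 to 51.3. Errors are therefore the SD between 3 libraries, or the SE of the fitted log2 fold change. The SE was derived as the absolute log2 fold change over the square root of the quasi-likelihood F statistic. That statistic uses variance estimates shared in part across genes, so this SE is not a spread between 3 libraries alone. The 30 gene lists (765 entries, 9 unmatched) and the genes named were chosen with earlier results of these data known. Genes were named by rule: 5 glucocorticoid pathway genes, up to 10 protein-coding genes per direction without overlap and with at least 1 CPM in a group, up to 4 members a list by unadjusted p, and the 5 leading differences from each tissue. A gene that the rule also named is not reported here. Any other gene was chosen after its values were seen, Leydig genes beyond the first 4 included. No GRCm38 coordinates were applied to the deposited values, and promoters only show reference sequence.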

Additional observations from a re-analysis of the deposited data

Results flagged for a closer look

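The stress effect differed between testis and liver by edgeR's interaction test for 8 of the named genes, each value being the testis effect minus the liver effect on the log2 scale with 3 libraries a group. For Afm (-1.97), Fras1 (-1.88) and Tmem37 (1.90), the stress and control libraries did not overlap in testis. For Hal (1.68), which encodes an enzyme of histidine breakdown, neither tissue's groups overlapped, with 3.13, 2.73 and 2.36 CPM in stress testis against 1.30, 1.55 and 1.66 CPM in control testis, and 287.9, 253.3 and 239.3 CPM in stress liver against 476.5, 427.2 and 435.6 CPM in control liver. For Zbtb16 (-3.27), the complement gene copy C4a (-1.88), the hair follicle gene Tchh (2.63) and the spermatid nuclear envelope gene Sun3 (3.93), the testis groups overlapped and the liver groups did not.

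Sun3 had 94.6, 77.4 and 97.1 CPM in stress testis and 89.0, 86.8 and 82.4 CPM in control testis. In liver it had 0.0320, 0 and 0.0654 CPM under stress and 0.379, 0.565 and 0.528 CPM in controls, so the difference rested on a few counts in control liver. The 114 germ cell markers summed to 247.5, 297.5 and 285.9 CPM in stress liver and 176, 235 and 210 CPM in control liver, and the source of the liver counts was not tested. C4a had 463.5, 534.0 and 499.1 CPM in stress liver and 121.0, 138.9 and 100.7 CPM in control liver. With the animal as a block, Fras1 (edgeR adjusted p = 0.1261) and Tchh (0.06392) did not pass and the other 6 did. Leaving out control testis replicate 2 left 1 of the 33 genes that passed against liver, and leaving out control testis replicate 3 left 0.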

How the results depend on the processing

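Counts of genes that passed depended on the method. DESeq2 called 29 higher and 32 lower, no filter on low counts gave 10 and 15, and both included the 4 genes named above. Limma-voom called 0 higher and 3 lower, all 18 libraries fitted together 4 and 2, log2(TPM + 1) 1 and 1, and log2(TPM + 0.1) 0 and 0. Size factors of DESeq2 in edgeR and a floor of 1 CPM in 3 libraries kept all 4 genes, and library size alone kept 3. Leaving out each library gave 0 to 8 genes higher and 0 to 13 lower, with 0 and 0 without stress replicate 1 or control replicate 3, 0 and 1 without control replicate 1, and 2 and 3 without stress replicate 3. Library size alone moved the counts at an unadjusted p under 0.05 to 1693 higher and 801 lower. Deviations of same-numbered testis libraries from their group means had r = 0.077, 0.068 and -0.088. Over all stress and control pairs r ran from -0.146 to 0.126. With 3 libraries a group this cannot show whether the numbers pair animals, and the labels do not state it. A replicate block gave 2 higher and 4 lower.

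Against liver, no filter gave 134 genes, the replicate block by animal 16, of which 9 were among the 33, and leaving out a testis library 0 to 32. Against brain, no filter gave 8, the block 0 and leaving out a library 0 to 2. Small values changed sign. On both TPM scales Alas2 was -0.05, Hist1h1c -0.03, Sun3 -0.04 and Fam83e -0.01. The median over all tested genes was -0.06 on log2(TPM + 1) and -0.08 on log2(TPM + 0.1), beside 0.01 by edgeR on the counts. With 1 library left out, log2 fold changes ranged from -0.09 to 0.22 for Fkbp5, -0.06 to 0.44 for Sgk1, -0.03 to 0.97 for Bhlhe40, -0.20 to 2.45 for Robo4, -0.01 to 0.31 for Fabp4, -0.17 to 0.10 for Hbb-bs, -0.05 to 0.32 for Hist1h1c, 0.00 to 0.15 for Sun3 and 0.00 to 0.22 for Zbtb16, and the difference from brain from -0.02 to 0.18 for Hal and -0.16 to 0.13 for Tchh. The cause of these changes was not tested. With 3 libraries a group, a difference that missed the threshold is not shown to be absent.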

Other observations

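Tested genes of chromosome Y had a median log2 fold change of -0.19 over 127 genes, with 0 on the higher side and 6 on the lower side at an unadjusted p under 0.05 (4.72%, beside 5.3% of all tested genes). Those of chromosome X had one of -0.09 over 858 genes, with 29 (3.38%, beside 6.43%) and 70 (8.16%, beside 5.3%). Shares on the lower side were larger on chromosomes 18 (10.1%), 12 (9.48%) and 13 (9.3%). Those on the higher side were largest on chromosomes 17 (10.3%) and 7 (9.58%). Unprocessed pseudogenes, which are duplicated copies of genes, had a median of -0.24 over 223 genes, beside 0.01 over all tested genes. Chromosome 19 genes had a median of 0.08 over 614 genes.

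For Gm14598 and Ccdc7a, stress replicate 2 lay apart from the other stress libraries. Gm14598, an unprocessed pseudogene on chromosome X, had 4.91, 0.0329 and 7.88 CPM in stress testis, against 0.217, 0.0361 and 0.192 CPM in control testis. Ccdc7a on chromosome 8 had 114.8, 16.7 and 73.1 CPM in stress testis, against 46.3, 38.9 and 37.9 CPM in control testis. Gm21497, a protein-coding gene on chromosome Y, had 0 CPM in all 3 stress libraries, against 0.361, 5.35 and 1.63 CPM in control testis. These genes were chosen after their values were seen.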
